A study of Homo sapiens with 26 samples.

Results

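EZH2 immunoprecipitates of T98G glioblastoma cells gave a list of 2573 small RNA target exons, and 600 of them (23.3%) were wide exons found in T98G only. These are the rows of at least 500 bp that share no base with any of the 397 exons listed for K562 or the 669 listed for U87MG. They covered 1179 of the 1696 kb in the T98G list (69.5%) and carried 589 gene names. The lists of all 3 lines held 3639 rows. Another 109 wide T98G exons shared bases with an exon of another line, so 84.6% of the 709 wide exons were listed in T98G only, against 77.0% of the 1864 shorter ones. Width and list membership chose the exons, so these values are a description. Exons of SUPV3L1 (500 bp), ATG16L1 (500 bp) and ZNF547 (501 bp) were just inside the width limit, and exons of CPT1B (499 bp), BRD1 (498 bp) and DAPK1 (496 bp) were just outside it.

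The study sequenced RNA that co-precipitates with EZH2, and its title names mispriming in reverse transcription as a source of artifacts. T98G and U87MG are glioblastoma lines, and K562 is a chronic myeloid leukaemia line. For small RNA, T98G and U87MG each had 2 libraries with an EZH2 antibody, 2 with an IgG2a control and 2 of input without antibody, and K562 had 1 of each; these cells were untreated. Other libraries were made from fragmented long RNA and by iCLIP in T98G, and from polyadenylated RNA of U87MG cells given siRNA against EZH2 or GFP, with 2 libraries per siRNA. Beside the small RNA lists, the deposited files hold the siRNA comparison, a list of whole genes called as targets in T98G, which the iCLIP library's labels name, and a list of introns kept in U87MG. The lists hold 1 row per exon and no value per library. Depth is therefore unknown, no value has a replicate error, and no test of a difference was possible. Intervals are 95% Wilson intervals over exons or genes and cover counting error only. A call in T98G and not in another line can come from RNA level, from co-precipitation or from depth, and these cannot be told apart here. The lists also differ in form. The T98G list gives a peak distance per exon, and the K562 and U87MG lists a number of joined exon names. Whether the exons of all lines were called alike is not known.

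EZH2 is the catalytic subunit of PRC2, which methylates lysine 27 of histone H3 and is known to bind many RNAs. Small RNA libraries of this kind are made by ligating an adapter to the 3′ end of each RNA and starting reverse transcription from a primer that pairs with it. A primer that pairs inside a longer RNA instead gives a read whose end is followed, in the genome, by bases resembling the adapter. Most annotated exons are short internal ones. The wide exons of the genome are mainly last exons with a 3′ UTR, single-exon genes, processed pseudogenes (spliced mRNAs copied back into the genome) and transcripts that keep an intron.

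The list gives for each exon a signed distance from the exon middle, which places 1 peak in it. The peak middle fell on a whole base boundary in 507 of the 600 exons (84.5%), and only these were used for position and sequence. The value of the other 93 was off by 0.5 of a base (61 exons) or by a finer fraction (32), as a mean over several peaks would be. Of those 93, 36.6% (27.5 to 46.7) lay between 40% and 60% of the exon's length, against 16.6% (13.6 to 20.1) of the 507. A mean of several peaks that happens to land on a boundary cannot be recognised.

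In 10 of the 507 exons AGATCGG, with which the 3′ adapter of the library kit begins, started 11 to 15 bases downstream of the peak middle. The following 30-base stretches (GRCh37, 5′ to 3′ on the RNA strand) are shown because they hold this longest match, in capitals. They run from 8 bases before to 22 bases after the peak middle.
MTF1 (chr1:38277380-38277409, minus strand): cacctctgggatagttggtAGATCGGagag
CHKA (chr11:67821235-67821264, minus strand): cactaggactcagaaacgAGATCGGgaagc
FBRSL1 (chr12:133161343-133161372, plus strand): tcttggaatctgtagaccAGATCGGtggag
FUT8 (chr14:66209501-66209530, plus strand): ctgtgtgaactattgagaAGATCGGaacag
C16orf91 (chr16:1470064-1470093, minus strand): aaggcggagcagaatctcagcAGATCGGaa
RNPS1 (chr16:2303128-2303157, minus strand): agaattgtgttgaataaacccaAGATCGGa
TGFB1I1 (chr16:31485234-31485263, plus strand): taccgggctctgtgagctAGATCGGttgct
AP2A1 (chr19:50306393-50306422, plus strand): tcgagaaccagctgctgcAGATCGGagtca
NFKB1 (chr4:103500016-103500045, plus strand): ggactgtgctgtatggccctAGATCGGgaa
FAT4 (chr4:126241998-126242027, plus strand): atatatactaatgctgaaatAGATCGGgaa

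The places of these matches were spread over the kinds of transcript. MTF1 encodes the metal-responsive transcription factor. Its 6000 bp last exon had the peak 3837 bases from the 5′ end, in the 3′ UTR. CHKA, FBRSL1, FUT8 and RNPS1 also had it in the 3′ UTR of a last exon, and so did C16orf91 in a single exon with a retained intron. FAT4, an atypical cadherin, had it in coding sequence of a 5188 bp internal exon, at 85.8% of the exon's length. In TGFB1I1 and AP2A1, an adaptin of clathrin coats, the exon with the retained intron was 2071 and 2560 bp wide. The peak of both lay in coding sequence, in coding exons of 138 and 83 bp. The NFKB1 peak lay in intron sequence that only a retained-intron transcript covers. The RNPS1 peak, 33 bases from the exon's 3′ end, has 3 exact copies in the genome, and the other 9 have 1.

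Shorter matches were common at the same place. The first 4 adapter bases, AGAT, started at bases 11 to 15 in 113 of 507 exons (22.3%, 18.9 to 26.1). The same held for 25.8% of all 2463 T98G exons with a peak. In a window 20 bases further downstream it was 18 exons (3.55%, 2.26 to 5.54), and on the opposite strand 15 (2.96%). The start was base 11 in 37 exons, base 12 in 37, base 13 in 17, base 14 in 12 and base 15 in 10, and 1 exon had it at base 10. Over 45 flanking positions, bases -20 to 4 and 31 to 50, the mean was 0.649% and the highest number was 8 exons. Between these and the window, base 19 had AGAT in 10 exons (1.97%). Matches of 5, 6 and 7 bases were found in 53, 17 and 10 exons, against 7, 1 and 0 in the window further downstream. The 0 of 507 has an upper Wilson limit of 0.752%. The window and the sign of the distance had been chosen from all T98G peaks, these included, so the shares are a description. Wide exons shared with another line had AGAT in 25 of 98 (25.5%, 17.9 to 35.0), and the share hardly moved with width: 22.7% under 1000 bp, 22.8% from there to 2000 bp and 21.2% at 2000 bp or more.

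**Figure D1:**
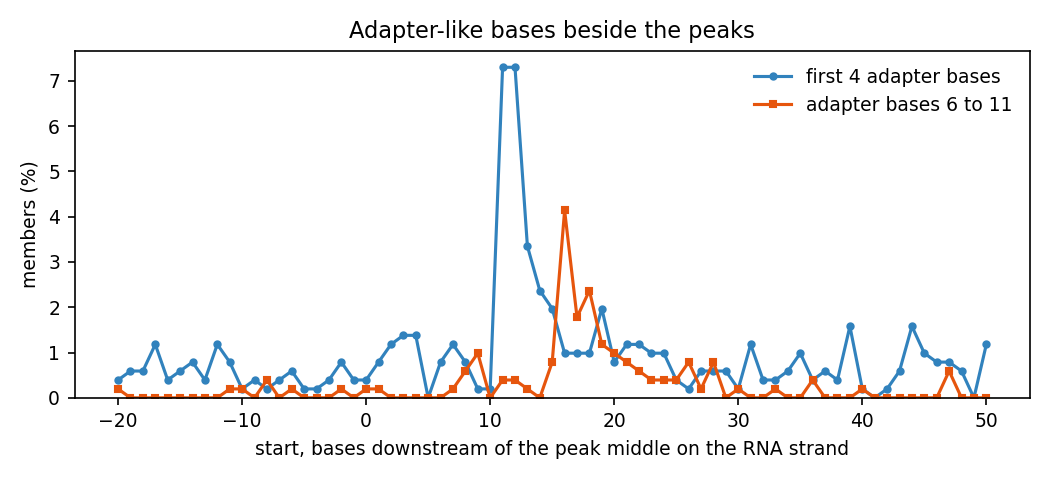
Share of 507 wide T98G-only exons (vertical axis, percent) in which the first 4 adapter bases (blue) or adapter bases 6 to 11 (orange) start at each base downstream of the peak middle (horizontal axis, RNA strand). The blue line is highest at bases 11 and 12 (7.30% each) and the orange line at base 16 (4.14%).

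A later stretch of the adapter was found beside other peaks. GGAAGA, adapter bases 6 to 11, started 16 to 20 bases downstream in 53 of 507 exons (10.5%, 8.08 to 13.4), where 9.14% of all T98G exons had it, and in 3 (0.592%) in the window 20 bases further. It was the most frequent 6-mer among starts 11 to 20, in 62 exons against 4 further downstream. In 41 of the 53 exons AGAT was absent from its own window. AGAT or GGAAGA was present in 154 exons (30.4%, 26.5 to 34.5), against 21 (4.14%) further downstream, so 69.6% had neither. The following 4 stretches run from 5 bases before to 25 bases after the peak middle, with GGAAGA in capitals.
GPR89C (chr1:145900307-145900336, plus strand): ctgaacagtgattcatagagGGAAGAatac
GPR89B (chr1:147442008-147442037, plus strand): ctgaacagtgattcatagagGGAAGAatac
MMGT1 (chrX:135045527-135045556, minus strand): ttcttctggtacgatttggtttGGAAGAgc
PRKRIR (chr11:76063369-76063398, minus strand): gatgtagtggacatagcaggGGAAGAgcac

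GPR89B and GPR89C are near-identical copies on chromosome 1, and both 3189 bp exons had the peak 3010 bases from the 5′ end. The 20 bases at that peak have 2 copies in the genome, so the reads cannot be assigned to either gene. MMGT1, a membrane magnesium transporter, had its peak in the 3′ UTR of a 3114 bp last exon. PRKRIR, also called THAP12, had it in coding sequence, 445 bases into a 2839 bp last exon.

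The exons were mostly last or single ones. Matched to GENCODE, 302 of 600 were last exons (50.3%, 46.3 to 54.3), 85 single (14.2%), 94 first (15.7%) and 100 internal (16.7%), 2 fitted several kinds and 17 matched no annotated exon. Among all T98G exons last exons made up 19.7%; the width limit shapes this difference. By transcript, 291 (48.5%) belonged to protein-coding transcripts and 166 (27.7%, 24.2 to 31.4) to transcripts annotated with a retained intron. A further 74 (12.3%, 9.94 to 15.2) were pseudogenes, 37 were in other transcripts of coding genes and 15 in lncRNAs. Both ends equalled an annotated exon in 416 (69.3%). They lay on 24 chromosomes, 302 on the plus and 298 on the minus strand.

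**Figure D2:**
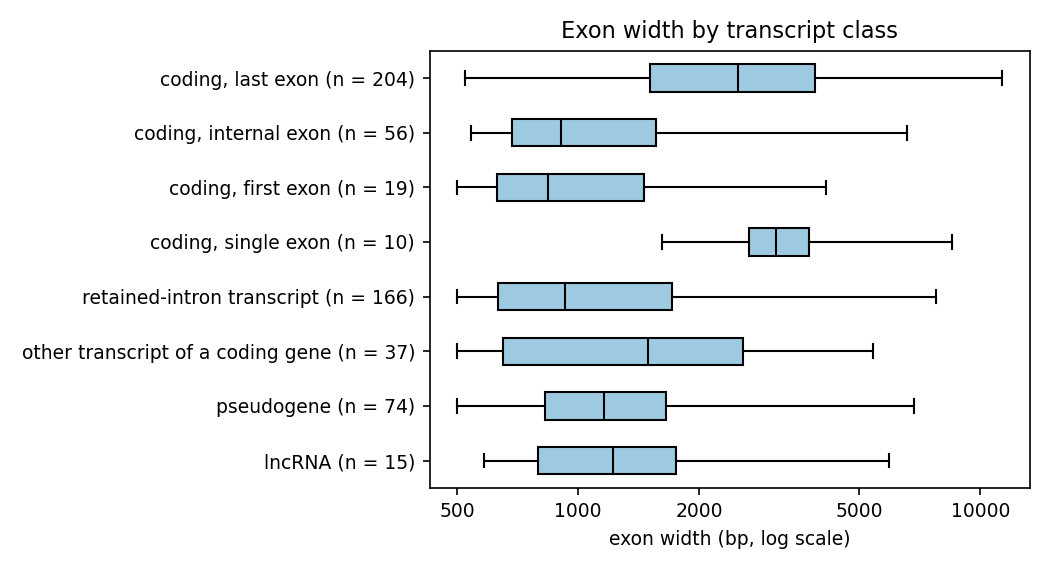
Exon width in bp (horizontal log axis) for each transcript class with its number of exons; boxes span the quartiles, the line is the median and whiskers reach the lowest and highest. Last exons of coding transcripts have a median of 2494.5 bp and retained-intron transcripts 928.5 bp.

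Width had a median of 1404 bp, with quartiles of 778.5 and 2610 bp, and 389 exons reached 1000 bp and 32 reached 5000 bp. The widest was the last exon of CLSTN2, a calsyntenin of synapses (11345 bp, chr3:140284895-140296239), with its peak in the 3′ UTR 8963 bases from the 5′ end. ZC3H6 followed with 9059 bp and SV2B, a synaptic vesicle glycoprotein, with 8941 bp and a peak in the 3′ UTR at 47.7% of its length. S1PR3, a receptor for sphingosine 1-phosphate, had a single exon of 8505 bp with the peak at 83.6%, in the 3′ UTR, and AGAT in the window. ZMAT3, a p53 target, had 8006 bp and a peak at 81.2%. SREK1 (7757 bp) was the widest with a retained intron, and its peak lay in intron sequence with AGAT in the window. TANC2 had 7701 bp, CLOCK 7692 bp, TSHZ1 7087 bp and the pseudogene AHCTF1P1 6821 bp. So 9 of the 10 widest belong to coding genes, and TANC2 and ZC3H6 had no usable peak.

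The peaks were spread along the exon, but differently by class. Over all 507 exons 264 peaks (52.1%, 47.7 to 56.4) were 5′ of the exon middle, and the median place was 47.3% of the length. In last exons of coding transcripts 109 of 162 (67.3%, 59.7 to 74.0) were 5′ of the middle. There 30 peaks were in the first 10% of the length and 7 in the last 10%, and only those of RNPS1 and PARP10 lay under 100 bases from the 3′ end (1.23%). In retained-intron transcripts 32 of 145 peaks (22.1%) were in the last 10% and 65 (44.8%, 37.0 to 53.0) 5′ of the middle. First exons of coding transcripts had a median place of 73.6% (n = 18), and 4 peaks were 5′ of the middle. Wide exons shared with another line had 53 of 98 5′ of the middle (54.1%, 44.2 to 63.6). No test of these differences was made.

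**Figure D3:**
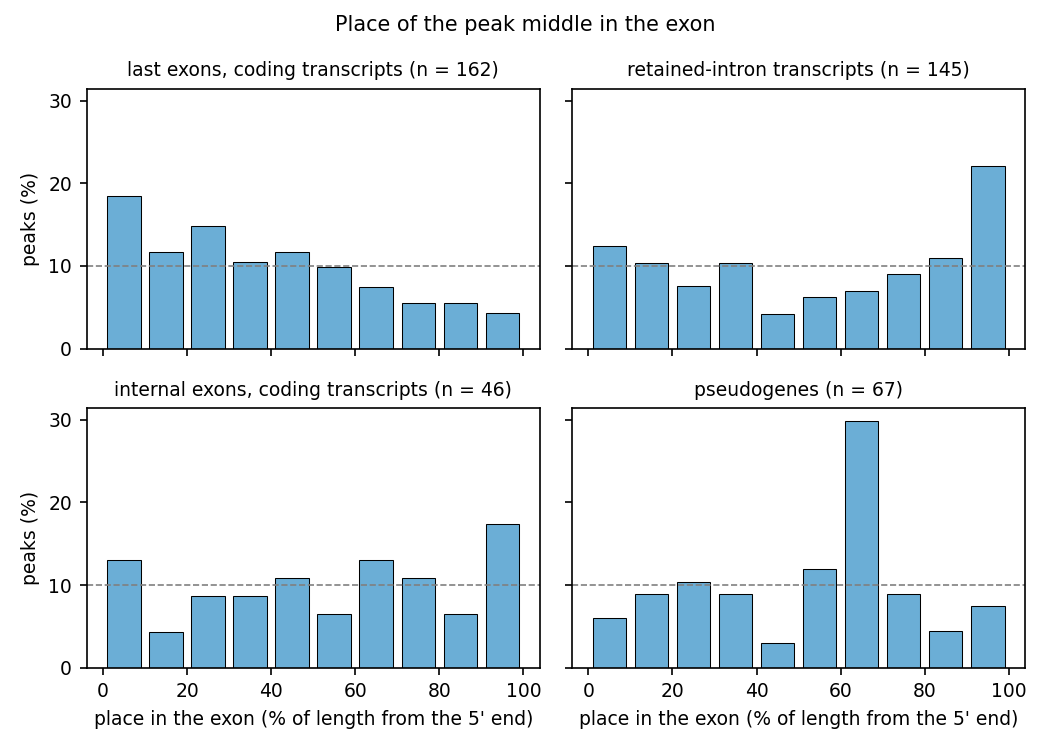
Share of peaks (vertical axis, percent) in each 10% of the exon's length from the 5′ to the 3′ end (horizontal axis) for 4 classes; the dashed line is an even spread. The opposite sign of the distance would mirror each panel. Last exons fall from 18.5% in the first bar to 4.32% in the last, retained-intron transcripts have 22.1% in the last bar, and pseudogenes have 29.9% between 60% and 70% of the length.

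Ranked by share of the exon's length, the most extreme peaks sat on or near exon ends. Counted in bases, others were as near, such as the USP47 peak, 6 bases into a 597 bp exon. The ENDOV peak was 7 bases into a 1954 bp exon, and the SERPINE2 peak 11 bases into a 5238 bp exon with a retained intron, in its coding part and with AGAT in the window. SERPINE2 encodes a serpin also called protease nexin. The UFSP2 peak middle lay 1 base upstream of its exon. At the 3′ end, the MAP3K7 peak was on the 3′ boundary of a 1712 bp exon, and the SNHG10 and CCP110 peaks were 8 and 17 bases beyond theirs. In all, 3 peaks were outside the exon.

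Most peaks lay in coding sequence or a 3′ UTR. Where transcripts differed, a peak counted as coding if any protein-coding transcript had coding sequence there. Such a peak can lie past the last coding base of the listed exon's own transcript. The peak was in coding sequence in 220 of 507 exons (43.4%, 39.1 to 47.7), where 74.3% of all T98G exons with a peak had it. It was in a 3′ UTR in 128 (25.2%), in a pseudogene exon in 68 (13.4%), and in sequence of a coding gene annotated only in non-coding transcripts in 58 (11.4%). A further 16 were in lncRNA exons, 13 in a 5′ UTR and 4 in no annotated exon. The 3′ UTR held 51.9% of peaks in exons of 2000 bp or more and 7.07% in those under 1000 bp. In last exons with a 3′ UTR peak, that peak was a median of 856 bases downstream of the last coding base (17 to 10188, n = 111). This distance runs along the genome and includes introns, so it is not a length of 3′ UTR. The KITLG peak, with 10188, was only 2171 bases into its 4389 bp last exon.

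Coding sequence was hit more often than its share of the exon. It made up 20.0% of the pooled bases of the 507 exons, or a mean of 25.2% per exon, and held 43.4% of the peaks. Reading the distance with the opposite sign gave 19.7%. In retained-intron transcripts it made up 20.0% of the bases (mean 24.8% per exon) and held 94 of 145 peaks (64.8%, 56.8 to 72.1). The other sign gave 26 (17.9%). The coding exons at the 94 coding peaks had a median width of 129.5 bp, whereas the listed exons had a median of 928.5 bp. In last exons of coding transcripts it made up 13.7% of the bases and held 49 of 162 peaks (30.2%, 23.7 to 37.7), against 13 with the other sign (8.02%). In first exons it was 8 of 18 peaks (44.4%, 24.6 to 66.3), an interval that includes the 28.6% of bases and the mean of 25.4% per exon. Internal exons are nearly all coding (94.8% of bases), and 45 of 46 peaks were in it with either sign. AGAT was in the window of 22.7% of coding peaks and of 21.9% of 3′ UTR peaks.

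**Figure D4:**
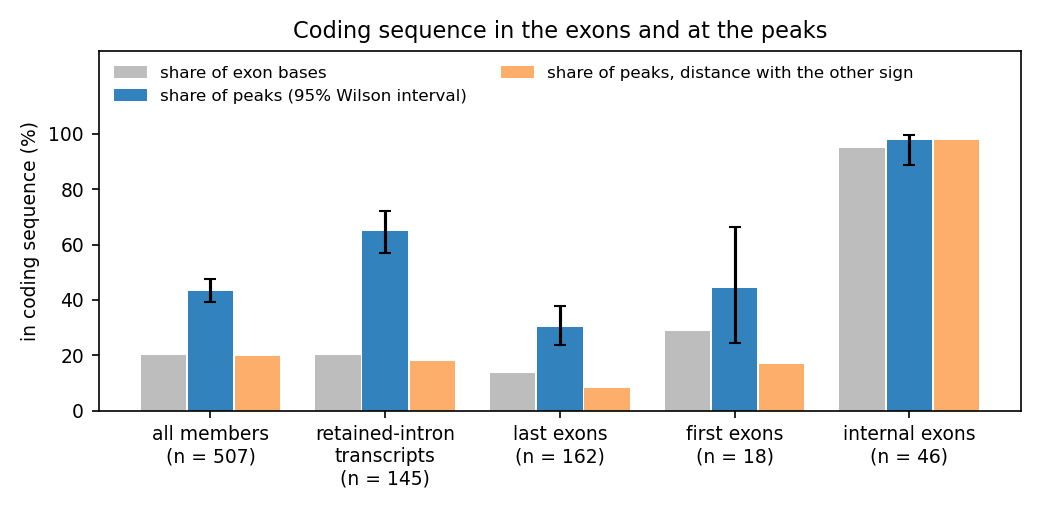
Coding sequence as a share of exon bases pooled over exons (grey) and of peaks (blue, with 95% Wilson intervals), and of peaks when the opposite sign is used for the distance (orange), in percent, for all members and 4 classes. In retained-intron transcripts the shares are 20.0%, 64.8% and 17.9%.

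Several genes illustrate this. The SDHA exon, from the flavoprotein subunit of succinate dehydrogenase, is 662 bp wide with 25.5% coding bases, and its peak lay 147 bases from the 5′ end in a coding exon of 169 bp. The EHD1 exon is 711 bp wide, and its peak was 148 bases from the 5′ end in a coding exon of 392 bp. The ZEB2 exon is 3222 bp wide with 8.0% coding bases, and the peak was 29 bases from its 5′ end in a coding exon of 45 bp, with AGAT in the window. The CDH6 exon is 1370 bp wide, and its peak was 31 bases from the 5′ end in coding sequence. In each of these 4 exons the peak was in the coding part and not in the retained intron. In CTNNB1, the gene of β-catenin, the peak of a 1313 bp last exon was in the 3′ UTR, 513 bases along the genome past the last coding base.

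Among these exons 11 genes had 2 each. In LATS1, a kinase of the Hippo pathway, the 4086 bp last exon had its peak in the 3′ UTR and a 583 bp internal exon had it in coding sequence, 49 bases from the 3′ end. In WNT5A, a Wnt ligand, the 4836 bp last exon had its peak in the 3′ UTR, 3444 bases from the 5′ end, and a 525 bp exon with a retained intron had it in coding sequence. UBR4, a ubiquitin ligase, had a 3′ UTR peak in a 2431 bp last exon and a coding peak in a 936 bp exon. ADCY9, CHKA and SYNRG each had a 3′ UTR peak in the last exon and a peak in intron sequence of a retained-intron transcript. FAM76B had 2 coding peaks, 47 and 44 bases from the 3′ ends of exons of 687 and 1318 bp. DMXL2 and ENY2 had coding peaks in both exons. SPTBN1, a spectrin, had internal exons of 871 and 757 bp with 100% coding bases, and only the first had a usable peak. AKAP9 had none. The SPTBN1 and CTNNB1 stretches, from 8 bases before to 22 bases after the peak middle, are shown as examples of peaks with neither AGAT nor GGAAGA in the windows.
SPTBN1 (chr2:54856371-54856400, plus strand): aggcgaagacatgatcgcggaggagcactt
CTNNB1 (chr3:41281336-41281365, plus strand): agtgactcaagaagtgaagaatgcacaaga

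Pseudogenes were the class in which a peak most often had copies elsewhere. The 20 bases around the peak middle had more than 1 exact copy in the genome in 91 of 507 exons (17.9%, 14.9 to 21.5), where 13.8% of all T98G exons with a peak had this. Of the 91, 46 were pseudogenes, and 46 of 67 pseudogene peaks had several copies (68.7%, 56.8 to 78.5). In 52 of the 67 (77.6%, 66.3 to 85.9) the 20 bases also occur in a protein-coding transcript. In 42 of these 52 they run unbroken through the coding gene, and in 10 (19.2%, 10.8 to 31.9) they are unbroken only in its spliced transcript, across a splice junction. Of those 10, 6 had 1 genome copy, the pseudogene itself: ASNSP3 (ASNS, asparagine synthetase), ELL2P1 (ELL2), INTS6P1 (INTS6) and copies of CLK2, CDK7 and SON. Reads of the pseudogene and of the spliced coding gene cannot be told apart at these 20 bases. The labels name BWA for small RNA reads, an aligner that does not split reads over introns, and its part in the pseudogene calls was not tested.

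RPL5, a protein of the large ribosomal subunit, had 12 pseudogenes among the exons. The following 3 stretches are shown with the 20 bases that all 12 share in capitals.
RPL5P11 (chr4:174340705-174340734, minus strand): gaaaaCAAGGAATTTAATGCAGAAGtacac
RPL5P4 (chr1:35816874-35816903, plus strand): gaaagCAAGGAATTTAATGCAGAAGtacac
RPL5P15 (chr5:58118891-58118920, plus strand): gaaagCAAGGAATTTAATGCAGAAGcgcat
In 11 of the 12 the peak was at 61.3% to 64.3% of exons of 815 to 897 bp, and the 20 bases at the peak had 13 to 15 genome copies and occur in RPL5. In RPL5P15, a 752 bp exon, it was at 76.7% with 1 genome copy. Because they share the sequence, the 12 do not count as separate observations, and they make up 11 of the 20 pseudogene peaks between 60% and 70% of the length. All 12 matched the first adapter bases over at most 2 bases.

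RANBP2, a nuclear pore protein, and its copies RGPD5, RGPD6 and RGPD8 on chromosome 2 each had an exon of 577 bp with the peak 71 to 74 bases from the 5′ end. The 24 capital bases are the same in all 4 and end in GGAAGA, and the 20 bases at each peak have 8 genome copies. In all 4, this GGAAGA starts closer to the peak middle than the window used for GGAAGA above, so it does not count as an adapter match there.
RANBP2 (chr2:109347838-109347867, plus strand): tgtAAAAATGATGTTACTGATGGAAGAgca
RGPD8 (chr2:113179600-113179629, minus strand): tgtAAAAATGATGTTACTGATGGAAGAgca
The EIF3L pseudogenes EIF3LP2 and EIF3LP3 on chromosome 10 had peaks at 96.2% and 96.1% of exons of 807 and 822 bp, again in shared sequence, of which 24 bases are in capitals.
EIF3LP2 (chr10:43062898-43062927, plus strand): tcgAACCCTGAAGAAGATGGGACAGAGacc
EIF3LP3 (chr10:38368988-38369017, minus strand): tcgAACCCTGAAGAAGATGGGACAGAGacc
The 20 bases at each peak are in EIF3L mRNA, across a splice junction in the case of EIF3LP3. ANKRD36 and ANKRD36B had 502 bp exons with the peak 49 and 48 bases in, and FAM45A and FAM45B shared the bases of their peaks at 3.47% and 64.8% of the exon. The RBM23 peak had the most copies, 27.

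Few peaks had their sequence in a called exon of another line, which follows largely from the rule. The rule compares coordinates, so an exon can be in T98G only while its peak sequence is in another line's list at another locus. That needs a further copy of the sequence, and 416 of the 507 peaks had 1 genome copy. This was so for 4 of 507 exons with K562 (0.789%) and 5 with U87MG (0.986%), 8 in all. They were ANKRD36, ANKRD36B, HNRNPKP2, HNRNPH1P3, HK2P1, RP1-84O15.1, PRKRIR and PRKRIRP7. The bases of HNRNPKP2 are in a listed exon of HNRNPK in both lines, and those of HK2P1 in one of HK2, hexokinase 2, in U87MG. Within T98G, 58 (11.4%, 8.95 to 14.5) shared their 20 bases with another listed exon, 40 of them pseudogenes.

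Most of the genes were not in the other lines' lists at all. A gene name of the exon was also in the K562 or U87MG list, at another exon, for 78 of 600 (13.0%, 10.5 to 15.9), 36 with K562 and 60 with U87MG. Among all T98G exons it was 35.1%, which includes the shared exons themselves, and among short T98G-only exons 286 of 1435 (19.9%).

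Few of the exons were in full-length targets, the list of whole genes that the authors called in T98G. They were 51 of 600 (8.50%, 6.52 to 11), in 49 of the 824 full-length targets, and 12.0% of all T98G exons were in one. Retained-intron exons had 27 of 166 (16.3%, 11.4 to 22.6), last exons of coding transcripts 15 of 204 (7.35%, 4.51 to 11.8) and pseudogenes 0 of 74 (upper Wilson limit 4.93%). The widest were KLF13 (5890 bp, a Krüppel-like transcription factor), NACC2 (5488 bp), MCF2L (5066 bp), KIAA0930 (4984 bp) and MAFG with SIRT7 (4788 bp). Their peaks lay at 51.9%, 45.9%, 53.2%, 44.9% and 49.3% of the exon, close to the middle; whether these values are means of several peaks was not tested. SMG1 (3366 bp), BCOR (3275 bp), WDR6 (3079 bp), QSOX2 (2943 bp) and FAM160B2 (2606 bp) followed, and SMG1 and BCOR had no usable peak. SMG1 is a kinase of nonsense-mediated decay, and BCOR a corepressor found in a variant PRC1. AGAT was in the window of 9 of 42 peaks in full-length targets (21.4%) and of 104 of 465 others (22.4%). The retained-intron list of U87MG, which holds 43 introns, bordered 2 of the 600 exons, in FAM178A and LATS1. The share over all T98G exons is not given, so this number cannot be called few or many.

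Genes with such an exon were mostly lower in U87MG under siEZH2, if the fold change is siEZH2 over siGFP. That direction was read from the order of the names and no label states it. The authors' deposited table lists 1342 rows at an adjusted p of 0.05, 49.3% of them higher under siEZH2. It held 63 of the genes, 11 higher and 52 lower (17.5% higher, 10.0 to 28.6), against 25.4% of all 197 T98G target genes in it. With only exons of at least 1000 bp, 9 of 35 genes were higher (25.7%), close to the share of all T98G target genes. For the 63 genes the authors' deposited table has a median log2 fold change of -0.66. For T98G target genes without a wide T98G-only exon 39 of 134 were higher in the authors' deposited table (29.1%, 22.1 to 37.3), an interval that overlaps the other. The difference was not tested. The genes of 65 of the 600 exons (10.8%) were in the table, and those of 11.4% of all T98G exons. EZH2 itself has no row in the table, so neither the knockdown nor the direction was checked. Also, 1 of the 2 siEZH2 libraries has a treatment label that names EZH3.

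The lowest value in the authors' deposited table was -1.25 for SCD, stearoyl-CoA desaturase, whose listed exon is 4101 bp wide. EHD1, an endocytic recycling protein, followed with -1.24, BTAF1 with -1.19 and MYCBP2, a ubiquitin ligase, with -1.13. FLNC, filamin C, had -1.10, ZMAT3 -1.09, UBR4 -1.05 and REV3L, the catalytic subunit of DNA polymerase zeta, -1.0 in the authors' deposited table. The highest were MCF2L, a guanine nucleotide exchange factor, with 1.85 and RCCD1 with 1.10. CHKA, choline kinase alpha, had 0.88 and KIAA1430 0.86 in the authors' deposited table. BTAF1 had 5 adapter bases in the window and CHKA 7; of the 9 genes with AGAT in the window 7 were lower. Of the 12 genes in a full-length target, 11 were lower and MCF2L was higher. RANBP2 had -0.79, RGPD8 -0.74 and RGPD5 and RGPD6 -0.55 each, and these copies share sequence; without the RGPD copies 11 of 60 genes were higher.

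**Figure D5:**
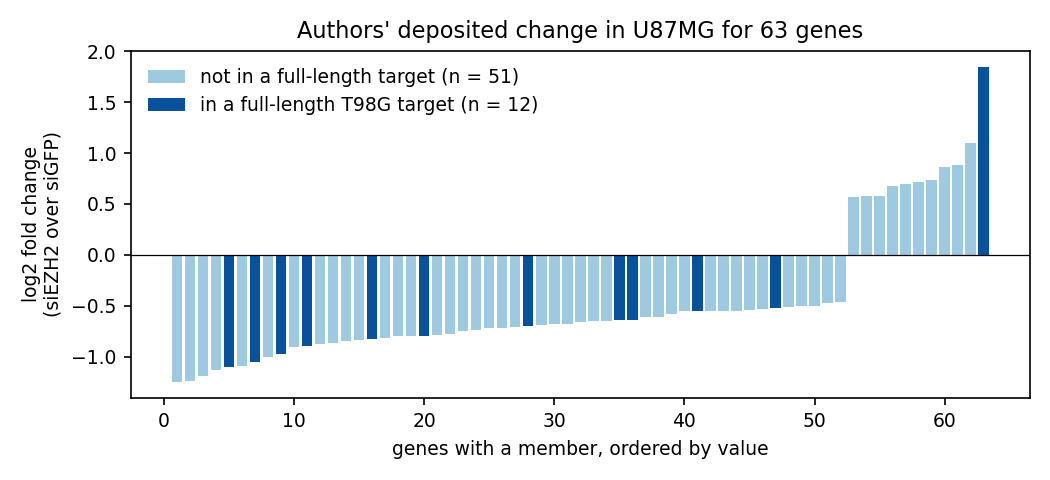
Authors' deposited log2 fold change, siEZH2 over siGFP in U87MG, for the 63 genes of the table with a wide T98G-only exon (each bar a gene, ordered by value); dark bars are genes in a full-length T98G target. The direction was read from the order of the names. Of the 63 genes 52 are below 0, and MCF2L is the highest at 1.85.

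Gene groups were counted over short lists of gene symbols or symbol beginnings, such as ZNF or USP, which leave out many genes of each group, so a count holds for the list and not for the whole group. Beside them stands 23.3% for all T98G exons, which is over exons of every width. Genes with large exons pass the width limit more often, so a higher share can reflect width alone. Shares among only the wide exons were not counted for these lists. Of the 8 exons on the cadherin family list 6 were among the wide T98G-only exons. FAT4, PCDHB4, PCDHB10, PCDH18 and CDH6 had coding peaks, and PCDHB16 (4814 bp) had no usable peak. PCDHB4 and PCDHB10 are single large exons of 3621 and 3274 bp with peaks at 6.8% and 21.4% of their length. Of 31 exons on the list of C2H2 zinc finger genes, which bind DNA through repeated fingers, 14 were among them, with 8 coding peaks out of 13. KLF13 and MTF1, which also have such fingers, are not on that list. They include ZBTB41 (6335 bp, peak in the 3′ UTR), ZBTB42 (3800 bp), ZEB2, ZNF781 (2806 bp), ZFP64 (2151 bp, coding peak), ZBTB11 (1601 bp, coding peak), ZNF598 and ZNF516 (coding peaks). Of 80 exons on the chromatin regulator list 15 were among them, and 10 of their 13 peaks were coding. The wide exons also include BCOR and MTF2, an accessory subunit of PRC2, which are not on that list. BRWD3 (6510 bp), PHF21B (2143 bp) and PHF2 (2000 bp), a histone demethylase family member, had 3′ UTR peaks. CHD9 (5131 bp), a chromatin remodeller, had a coding peak with 5 adapter bases, and BRD1 and SETD4 had coding peaks. ARID5B (6083 bp) and KMT2A (2654 bp), a histone H3 lysine 4 methyltransferase, had no usable peak.

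Of 136 exons on the ubiquitin list 22 were among them (16.2%), with 6 coding peaks out of 14. Of their genes UBR4, MYCBP2, BIRC6, XIAP, UBE2G2 and USP14 were in the authors' deposited table, and all 6 were lower, where 52 of all 63 genes with a wide T98G-only exon were lower. RNF144A (4554 bp), TRIM62 (2326 bp), UBE2D2 (1678 bp), an E2 conjugating enzyme, and USP8 (2181 bp), a deubiquitinase with AGAT in the window, had 3′ UTR peaks. UBE2G2 (2450 bp), TRIM52 (2349 bp) and HERC4 (1899 bp) had no usable peak. Of 22 exons on the solute carrier list, which takes every SLC symbol, 7 were among them, of which SLC39A10, a zinc importer, and SLC25A36 had AGAT in the window. SLC7A11, the cystine transporter, had a peak in the 5′ UTR, and SLC10A7 one in the 3′ UTR. The list of small RNA pathway and RNA decay genes, which leaves out SMG1 and UPF1, had 2 of 16 exons, AGO4 (4403 bp, no usable peak) and RC3H2 (5267 bp, 3′ UTR peak). The list of cell cycle and chromosome segregation genes, which leaves out MASTL, had 1 of 21, ATM, a kinase of the DNA damage response. Its 1070 bp exon had a peak with 5 adapter bases, coding in another transcript. In the listed exon's own transcript that peak is 65 bases past the last coding base. The list of extracellular matrix genes and integrins, which holds no cadherins and leaves out CADM1, had 1 of 23, ITGB8, an integrin subunit. Of all the lncRNA exons counted by transcript above, the list of named lncRNA genes covers only a few and had 4 of 8: TUG1 (4226 bp, no usable peak), SNHG3 (2063 bp), SNHG10 and SNHG8, the last 3 being hosts of small nucleolar RNAs.

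The circadian clock genes PER1, PER2, PER3 and CLOCK each had such an exon. They were picked after the list had been seen, from genes on it, and other clock genes were not counted. Their presence therefore says nothing about clock genes as a group. The PER2 peak was in coding sequence 119 bases into a 2487 bp last exon, and the PER3 peak in coding sequence 58 bases from the 3′ end of a 698 bp internal exon. The PER1 peak was 165 bases into a 1116 bp last exon, in sequence covered only by a non-coding transcript there. The CLOCK peak was in the 3′ UTR, 4987 bases along the genome past the last coding base. None of the 4 had AGAT in the window, and PER3 had a log2 fold change of 0.68 in the authors' deposited table.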

How the data were processed

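The deposited lists were used as given. Per the labels, small RNA reads were trimmed (cutadapt), aligned to hg19 (BWA) and counted per exon (bedtools). Per the labels, the authors then called exons with DESeq2 and peaks with pyicoclip. Per the submitters' processing notes, CASAVA 1.8 and DESeq2 were used. Thresholds are not given in the sources used here. The T98G list carries a score per exon deposited by the authors, a signed distance in bases; the exon middle minus this distance was taken as the peak middle. The siRNA table holds log2 fold changes deposited by the authors.

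Exons were matched to GENCODE release 44 on GRCh37 by the best Jaccard index (at least 0.5). Genome copies were counted for the 20 bases around the peak. The labels do not state the adapter sequence, which was taken from general knowledge of the kit. Coordinates are 1-based. Named genes were taken by rule: the widest, those with 2 exons, the longest adapter matches, the extreme positions, the largest deposited fold changes and the widest of each gene list; SDHA, EHD1, CTNNB1, the copies of RPL5, RANBP2 and other families, and the PER genes were added after their values were seen. Members and lists were chosen with earlier results of these data known. No p-values were computed. Columns of single libraries numbered 0. Python 3.11.15, pandas 2.3.3 and pysam 0.24.0 were used, and the sequence search was tested on simulated data.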

Additional observations from a re-analysis of the deposited data

How the results depend on the processing

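Of 27 alternatives 23 gave the same result, that is a count within 1.5 times or a share within its interval, and 4 moved it. A limit of 1000 bp left 389 exons. With that limit the share of genes higher under siEZH2 was 25.7%, counted as the same because the interval is wide (10.0 to 28.6). It is close to the 25.4% of all T98G target genes, so the contrast with them was not kept. With the other sign of the distance, coding peaks fell to 19.7% and AGAT to 2.37%. The other sign also mirrors each place in the exon, and the places by class were not among the alternatives. With the first 5 adapter bases required the share was 10.5%. Neither strand-specific overlap, 1 exon per gene nor exons with 1 genome copy moved a result. No paired analysis was possible because the lists hold no values for single libraries, and for the same reason no replicate could be left out. Depth is unknown, so absence from the K562 or U87MG list cannot be told apart from too little depth. Peak positions rest on 1 value per exon.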
